A study of Mus musculus with 12 samples.

Results

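The Ifi200 family of mouse chromosome 1 encodes interferon-inducible proteins, several of which bind DNA. The 10 genes described here are Aim2, Ifi202b, Ifi203, Ifi204, Ifi205, Ifi207, Ifi208, Ifi209, Ifi211 and Mndal, chosen by name from the 24011 genes that the platform annotation names in this series. Each of them is held by 1 row of the table, so no choice among rows was needed. The genes lie within 682 kb, between the start of Aim2 and the end of Ifi205 (chr1:173349547-174031755 in the RefSeq annotation of GRCm38.p6). They are copies of one another to differing degrees, so probes designed for one gene may bind transcripts of another, and the gene assigned to each value is uncertain to that extent.

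The study measured liver sinusoidal endothelial cells (LSECs), the fenestrated scavenger endothelium of the liver capillaries, on 12 Affymetrix arrays. Stabilin-1 (Stab1) and stabilin-2 (Stab2) are large scavenger receptors of these cells. The 4 genotypes, with 3 arrays each, were wild type (WT), mice without Stab1 (Stab1KO), mice without Stab2 (Stab2KO) and mice without either (DKO), all on the C57BL/6J strain and aged 3 to 4 months. Each array held RNA of a separate pool of 3 mice, from cells taken with CD146 beads directly after liver perfusion. The labels give neither how the alleles were made nor whether mice of different genotypes were littermates. Colony and genotype therefore cannot be told apart, either against WT or between knockouts.

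Family proteins combine, as a rule, an N-terminal pyrin domain, which binds other pyrin domains, with a C-terminal HIN domain, which binds DNA. AIM2 is the best described: on cytosolic double-stranded DNA it assembles with the adaptor ASC (gene Pycard) and caspase-1 into an inflammasome that matures interleukin-1 beta and interleukin-18. Type I interferon, acting through interferon regulatory factors and STAT proteins, induces many of the genes, which makes the family part of the interferon response as well as of DNA sensing, and macrophages are a well-known site of their expression.

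Stab1 read 12.54 ± 0.08 (log2, SD, n = 3) in WT, 5.31 ± 0.14 in Stab1KO, 12.53 ± 0.06 in Stab2KO and 5.23 ± 0.23 in DKO, and Stab2 read 13.05 ± 0.05, 13 ± 0.02, 6.81 ± 0.57 and 6.65 ± 1.09, so both targeted genes matched the labels. The 16 LSEC marker genes averaged between 12.69 and 12.96 in every array. DKO replicate 3 stood apart: it correlated with the other arrays at 0.956 to 0.968 over all genes, while the other 11 correlated at 0.987 or more, and the mean of 14 neutrophil genes was 11.49 there against 5.26 to 6.49 elsewhere. The mean of 14 stellate cell genes was 7.93 to 8.44 in WT and 6.30 to 6.89 in the knockouts, and that of 14 Kupffer cell genes, the liver's resident macrophages, ran from 7.46 to 9.79. Nnt, a gene partly deleted in C57BL/6J but not in other C57BL/6 mice, read 7.83 to 8.07 in WT and 8.28 to 9.21 in the knockouts, without overlap. In such bulk samples, fewer cells of a type and less RNA per cell cannot be told apart. The part of these markers in the results below was not tested, except where values without an array are given.

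Most of the family did not differ detectably between genotypes, and the smallest unadjusted p-values against WT belonged to Ifi208 in Stab2KO and Aim2 in DKO. Ifi208, at about 7.3 in WT, averaged 4.23 in Stab2KO and 6.77 in DKO, and its difference between those 2 knockouts passed the test. Aim2 averaged 6.90 in DKO and 6.39 to 6.47 in the other genotypes, a separation without overlap that did not pass it. All values are log2 expression, on which a difference of 1 is a doubling, and levels of different genes are not compared because their probes differ.

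Against WT, limma called 0 of the 10 genes in Stab1KO, Stab2KO or DKO at a Benjamini-Hochberg adjusted p under 0.05 over all genes. The background in the same comparisons was 0.308% of all genes called in Stab1KO, 0.296% in Stab2KO and 1.8% in DKO, and a count of 0 in 10 does not depart from it. At an unadjusted p under 0.05, 0 genes passed in Stab1KO, 1 in Stab2KO (Ifi208) and 1 in DKO (Aim2). The share of all genes under that unadjusted threshold was not counted in any comparison. The moderated F-test over the 3 knockouts called 0 of the 10, against 1.62% of all genes. All 3 comparisons use the same WT arrays.

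The medians of the 10 differences from WT were -0.13 in Stab1KO, -0.16 in Stab2KO and -0.04 in DKO, beside 0.01, 0.01 and -0.02 over all genes. The difference was above 0 for 3 genes in Stab1KO, 0 in Stab2KO and 4 in DKO. Arrays of the knockout and of WT did not overlap for 2 genes in Stab1KO (Ifi202b and Ifi208), the same 2 in Stab2KO, and 2 in DKO (Ifi208 and Aim2). The share of all genes without overlap was 10.1% in Stab1KO, 15.7% in Stab2KO and 24% in DKO, so 2 of 10 lies near that background.

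**Figure D1:**
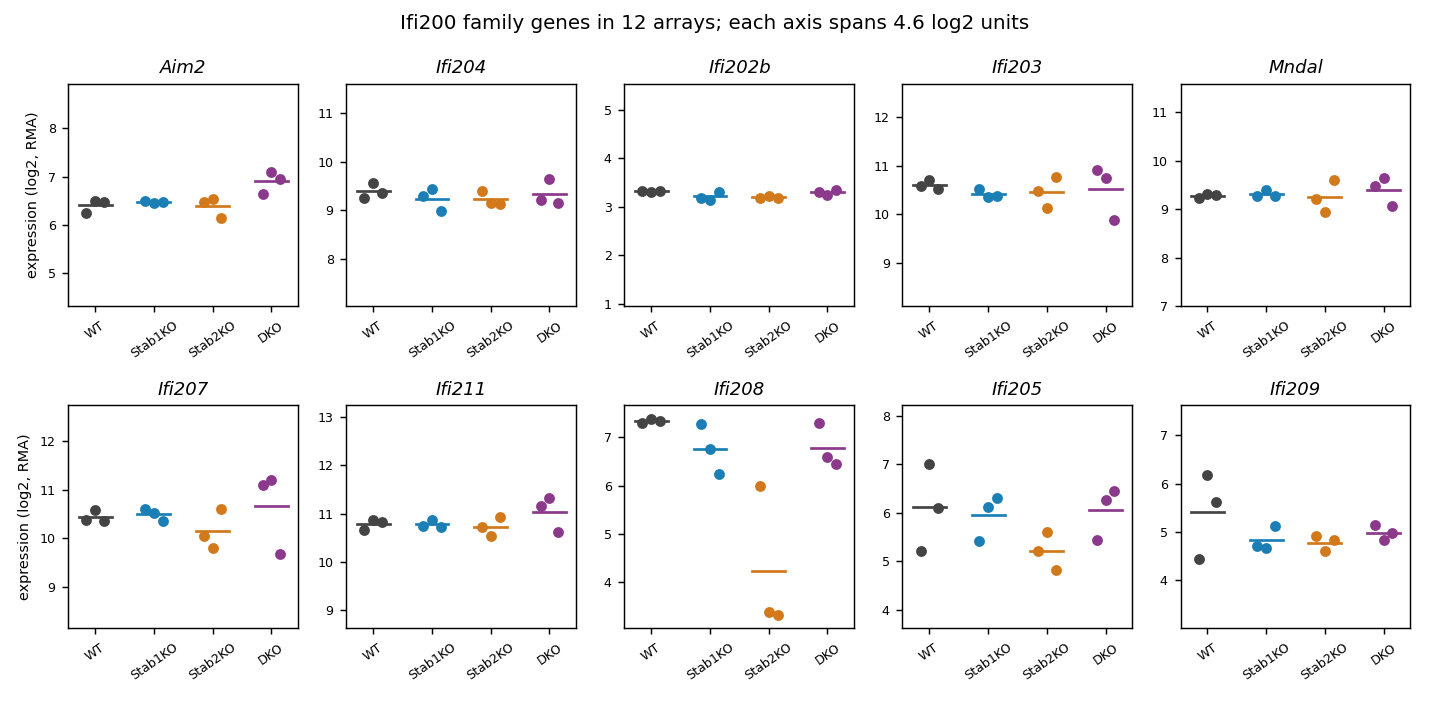
Expression (log2, RMA) of the 10 genes in each of 12 arrays, with 1 point per array and a line at the mean of the 3 arrays of a genotype. Each axis spans 4.6 log2 units at its own position, and Ifi208 in Stab2KO (5.99, 3.39 and 3.33) shows the widest departure from WT (7.29 to 7.38).

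Among the knockouts, 1 of the 10 was called in DKO against Stab2KO, Ifi208, which was higher in DKO, beside 3.42% of all genes. In DKO against Stab1KO, limma called 0 of 10 (background 0.945%, 1 gene at an unadjusted p under 0.05), and in Stab1KO against Stab2KO 0 of 10 (background 0.108%, 1 gene at an unadjusted p under 0.05). The departure from additivity is the effect of losing Stab1 in mice without Stab2 minus that in mice with Stab2. It was called for 0 of 10 (background 0.05%), and 3 genes passed at an unadjusted p under 0.05. These backgrounds are shares called after adjustment, so the unadjusted counts cannot be set against them. For 2 of the 10, Ifi202b and Ifi208, all Stab1KO arrays lay below WT and all DKO arrays above Stab2KO, and 0.937% of all genes separated in opposite ways like this. Ifi202b lay near the lower end of the scale throughout. All 10 differences were above 0 in DKO minus Stab1KO (0.01 to 0.43, median 0.10) and in DKO minus Stab2KO (0.06 to 2.53, median 0.26). The medians over all genes were -0.03 in both, and the share of all genes above 0 was not counted. Leaving out 1 array could turn the sign of Ifi203, Ifi204, Ifi205, Ifi207, Ifi208 and Mndal in DKO minus Stab1KO. The same held for Ifi203, Ifi204 and Mndal in DKO minus Stab2KO. The genes share arrays and sequence, so the 10 signs are not independent.

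Ifi208 (chr1:173673628-173698393), which RefSeq also lists as Pydc3, a name for a pyrin domain protein, varied most. Its range over the 12 arrays was 4.05, above that of 99.2% of genes. In WT the arrays read 7.29, 7.38 and 7.34, in Stab1KO 7.27, 6.75 and 6.24, in Stab2KO 5.99, 3.39 and 3.33, and in DKO 7.29, 6.58 and 6.44. WT was tight and above every knockout array, though by less than the second decimal for DKO replicate 1, DKO and Stab1KO overlapped, and all Stab2KO arrays lay below all others, although their replicate 1 was much nearer to the other genotypes than their other 2 arrays. Those 2 arrays lie below 3.88, the lower quartile of the values in WT replicate 1. In that range an unknown share of the signal is background.

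The gene was higher in DKO than in Stab2KO by 2.53 ± 0.59 (log2, SE; 95% interval 1.22 to 3.84; limma adjusted p = 0.046). Against WT, the Stab2KO difference was -3.10 ± 0.59 (interval -4.41 to -1.79), with an unadjusted p of 0.00031 and an adjusted p of 0.0767, which missed the threshold. Because 2 Stab2KO arrays lie in the low range, both are differences of signal and no fold of expression is given. The differences from WT were -0.58 (adjusted p = 1) in Stab1KO and -0.57 (adjusted p = 0.697) in DKO, and Stab1KO minus Stab2KO was 2.52 (adjusted p = 0.288). The departure from additivity was 3.11 ± 0.84 (adjusted p = 0.161).

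Which side of the threshold Ifi208 fell on depended on single arrays. Without Stab2KO replicate 1, the Stab2KO minus WT difference was -3.98 (limma adjusted p = 0.00122), DKO minus Stab2KO was 3.41 (adjusted p = 0.00247), Stab1KO minus Stab2KO was 3.40 (adjusted p = 0.00273) and the departure from additivity was 3.99 (adjusted p = 0.0126), so all of them were called. Leaving out any 1 of the other 11 arrays ended the call in DKO against Stab2KO, where the difference then lay between 2.08 and 2.70. The exact two-sided permutation test of 3 arrays against 3 gave p = 0.1 for each separation of Ifi208 between Stab2KO and another genotype, the smallest value it allows. Over the arrays, Ifi208 correlated with the Kupffer cell mean at r = 0.45 and, as deviations from the genotype means, at -0.33, and with the stellate cell mean at 0.29 and 0.35 (n = 12, described without a test).

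The 3 genes whose profiles over the 12 arrays were most like that of Ifi208 were Tnfsf13os (Pearson 0.92, Spearman 0.76), Lrmda (0.87 and 0.69) and Mfsd4b1 (0.87 and 0.66), on chromosomes 11, 14 and 10. Lrmda read 8.64, 8.44 and 8.30 in WT and 6.38, 6.21 and 6.34 in Stab2KO, with 7.72 to 8.51 in the other 6 arrays. Its Stab2KO arrays lay close together, unlike those of Ifi208. Tnfsf13os and Mfsd4b1 also had their lowest values in the 3 Stab2KO arrays, at 3.96 to 4.33 and 4.28 to 4.42.

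Ifi208 has close relatives in the cluster, and their promoters are shown because the sequences make plain how nearly the copies match. RefSeq promoter windows, from 250 bases before to 50 bases after the annotated start, were given for 9 of the 10 genes, not for Ifi204. In local alignments the window of Ifi208 matched that of Ifi213 at 282 of 285 aligned bases (98.9%) and that of Ifi206 at 279 of 282 (98.9%). Ifi206 and Ifi213 are family genes outside the chosen 10. The 250 bases before each start (GRCm38.p6, 5′ to 3′) read as follows, with a match to GAAANNGAA, a letter pattern bound by interferon regulatory factors, in capitals.
Ifi208 (chr1:173673415-173673664, plus strand): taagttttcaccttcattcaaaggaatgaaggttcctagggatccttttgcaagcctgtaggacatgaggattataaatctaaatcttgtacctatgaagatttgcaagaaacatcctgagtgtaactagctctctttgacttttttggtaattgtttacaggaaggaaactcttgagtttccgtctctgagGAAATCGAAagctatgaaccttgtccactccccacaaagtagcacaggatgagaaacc
Ifi213 (chr1:173599273-173599522, minus strand): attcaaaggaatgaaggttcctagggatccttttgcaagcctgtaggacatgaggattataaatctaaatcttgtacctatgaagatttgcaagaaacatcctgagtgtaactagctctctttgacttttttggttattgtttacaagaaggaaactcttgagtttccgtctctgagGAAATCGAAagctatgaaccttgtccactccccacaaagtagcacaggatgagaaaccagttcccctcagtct
Ifi206 (chr1:173491319-173491568, minus strand): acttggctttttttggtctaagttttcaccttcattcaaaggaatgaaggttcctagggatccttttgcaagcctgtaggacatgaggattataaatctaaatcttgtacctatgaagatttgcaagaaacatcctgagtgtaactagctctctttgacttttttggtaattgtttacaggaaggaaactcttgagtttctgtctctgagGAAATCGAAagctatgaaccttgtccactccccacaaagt
All 3 carry the same 9 bases, GAAATCGAA, beginning 58, 73 and 40 bases before the start of Ifi208, Ifi213 and Ifi206.

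The relatives with these nearly shared promoters did not have the same profile, as the plot of the 3 genes by array shows. Ifi206 read 5.50, 5.17 and 5.41 in WT, 4.88, 5.37 and 5.07 in Stab1KO, 4.79, 5.03 and 4.61 in Stab2KO, and 5.67, 6.04 and 5.36 in DKO. Its Stab2KO arrays were below all WT and all DKO arrays. It was higher in DKO than in Stab2KO by 0.88 ± 0.19 (limma adjusted p = 0.0341), a call that ended in 7 of the 12 fits leaving out 1 array (0.71 to 1.05), and Stab2KO minus WT was -0.55 ± 0.19 (adjusted p = 0.466).

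Ifi213 read 6.05, 6.36 and 5.90 in WT, 6.50, 5.75 and 5.54 in Stab1KO, 6.09, 5.50 and 5.17 in Stab2KO, and 6.76, 7.43 and 6.15 in DKO. DKO lay above Stab2KO without overlap, by 1.19 ± 0.35 (limma adjusted p = 0.089). Stab2KO and WT overlapped, at a difference of -0.51 ± 0.35 (adjusted p = 0.812). When DKO replicate 3 was left out, the DKO minus Stab2KO difference was 1.51 (adjusted p = 0.04).

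**Figure D2:**
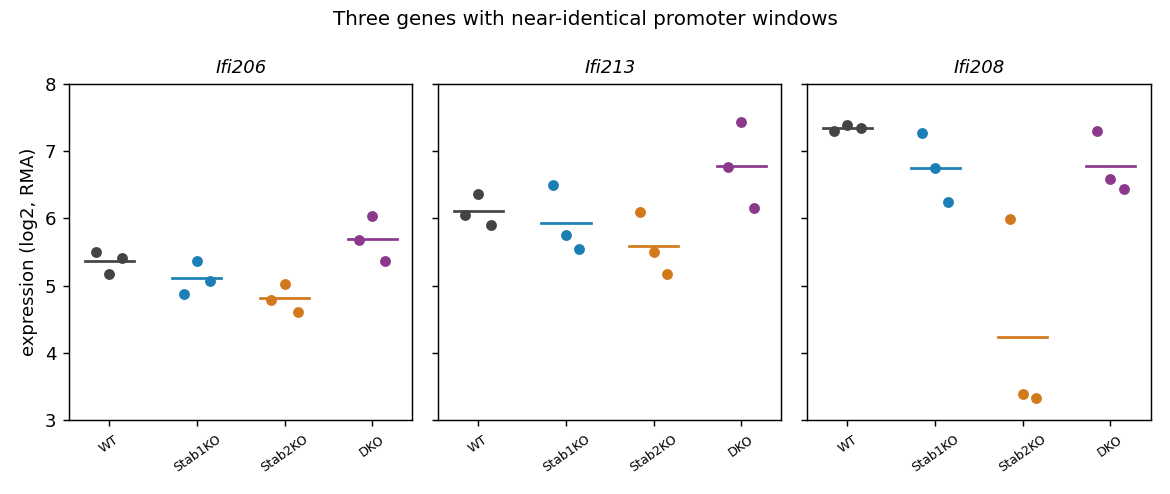
Expression (log2, RMA) of Ifi206, Ifi213 and Ifi208, whose promoter windows are at least 98.5% identical where they align, with 1 point per array and a line at each genotype mean. All 3 have their lowest mean in Stab2KO (4.81, 5.59 and 4.23), and the gap from WT is widest in Ifi208.

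Aim2 (chr1:173349547-173466040), the inflammasome-forming DNA sensor, was highest in the mice without both receptors. It read 6.25, 6.49 and 6.48 in WT, 6.49, 6.46 and 6.47 in Stab1KO, 6.48, 6.54 and 6.14 in Stab2KO, and 6.64, 7.10 and 6.96 in DKO. All DKO arrays lay above all 9 others, and those 9 spanned 6.14 to 6.54 with no separation between the single knockouts and WT. DKO minus WT was 0.49 ± 0.13 (95% interval 0.20 to 0.79; 1.41-fold), with an unadjusted p of 0.00395 and a limma adjusted p of 0.099. DKO minus Stab1KO was 0.43 (adjusted p = 0.148) and DKO minus Stab2KO 0.51 (adjusted p = 0.0647). None of these was called.

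Without DKO replicate 3, the array with the neutrophil genes, the Aim2 differences were 0.46 from WT, 0.40 from Stab1KO and 0.48 from Stab2KO, so their size hardly moved (limma adjusted p = 0.187, 0.269 and 0.12). Without DKO replicate 1, the DKO minus Stab2KO difference was 0.64 and was called (adjusted p = 0.0465). The departure from additivity was 0.45 ± 0.19 (adjusted p = 0.363). Aim2 correlated with the mean of 33 interferon-stimulated genes at r = 0.79 over the arrays and at 0.32 as deviations from genotype means (n = 12). Its deviations followed B and plasma cell genes (0.64) and Kupffer cell genes (0.50) more closely. Its levels also followed inflammasome genes (0.72), monocyte and dendritic cell genes (0.67) and cholangiocyte genes (0.63).

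Ifi204 (chr1:173747293-173767069) encodes p204, the protein most often set beside human IFI16 as a DNA sensor acting through STING. It read 9.26, 9.57 and 9.35 in WT, 9.29, 9.43 and 8.99 in Stab1KO, 9.39, 9.16 and 9.12 in Stab2KO, and 9.22, 9.64 and 9.16 in DKO. The 4 genotypes overlapped throughout. The differences from WT were -0.16, -0.17 and -0.05 (each ± 0.15). The 95% intervals together spanned -0.51 to 0.29, so with 3 arrays a group, true differences within each interval remain compatible with the values.

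Ifi202b (chr1:173962569-173982844) encodes p202, which binds DNA without a pyrin domain and restrains AIM2, and it is known for low expression in C57BL/6 mice. It read 3.32, 3.31 and 3.33 in WT, 3.18, 3.14 and 3.31 in Stab1KO, 3.18, 3.22 and 3.17 in Stab2KO, and 3.31, 3.24 and 3.34 in DKO. Its level lay above that of only 3.2% of genes and its whole range was 0.19, so every array was near the lower end of the scale. Stab1KO and Stab2KO arrays were below all WT arrays, the nearest Stab1KO array by less than the second decimal shows. The differences from WT were -0.11, -0.13 and -0.03 (each ± 0.07; limma adjusted p = 1, 0.701 and 0.896).

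Of the remaining relatives, 4 varied together from array to array and did not differ detectably from WT. Ifi203 (chr1:173920400-173942866), a nuclear family protein, read 10.59, 10.70 and 10.51 in WT, 10.52, 10.36 and 10.37 in Stab1KO, 10.48, 10.12 and 10.76 in Stab2KO, and 10.91, 10.74 and 9.88 in DKO. All 3 knockouts overlapped WT, and the lowest array was DKO replicate 3. Its differences from WT were -0.18, -0.15 and -0.09 (each ± 0.24).

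Ifi207 (chr1:173723424-173741831), another family protein, read 10.38, 10.59 and 10.35 in WT, 10.60, 10.52 and 10.36 in Stab1KO, 10.05, 9.80 and 10.60 in Stab2KO, and 11.10, 11.20 and 9.68 in DKO. In DKO, 2 arrays held the highest values of the 12 and replicate 3 the lowest. In Stab1KO, Stab2KO and DKO, the differences from WT were 0.06, -0.29 and 0.22 (each ± 0.34; limma adjusted p = 1, 0.926 and 0.822). DKO minus Stab2KO was 0.51 (adjusted p = 0.475). It was 1.00 and called without DKO replicate 3 (adjusted p = 0.0279), and 0.24 without DKO replicate 2 (adjusted p = 0.801). DKO minus WT was 0.71 without DKO replicate 3 (adjusted p = 0.106).

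Ifi211 (chr1:173896339-173913087) read 10.66, 10.87 and 10.83 in WT, 10.74, 10.87 and 10.73 in Stab1KO, 10.73, 10.54 and 10.93 in Stab2KO, and 11.16, 11.33 and 10.62 in DKO. As with Ifi207, the highest 2 arrays were of DKO and its replicate 3 was low. Relative to WT the differences were -0.01, -0.06 and 0.25 (each ± 0.16). DKO minus Stab2KO was 0.31 (limma adjusted p = 0.354). It was 0.51 and called without DKO replicate 3 (adjusted p = 0.0483), and 0.16 without DKO replicate 2 (adjusted p = 0.68). DKO minus WT was 0.46 without DKO replicate 3 (adjusted p = 0.0957).

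Mndal (chr1:173857215-173880382), a nuclear protein named for its likeness to the human myeloid nuclear differentiation antigen, read 9.23, 9.31 and 9.30 in WT, 9.28, 9.40 and 9.28 in Stab1KO, 9.20, 8.94 and 9.61 in Stab2KO, and 9.48, 9.64 and 9.06 in DKO. WT and Stab1KO were tight, while Stab2KO and DKO spread to both sides of them. Against WT the differences were 0.04, -0.03 and 0.11 (each ± 0.17), and without DKO replicate 3 DKO minus WT was 0.28 (limma adjusted p = 0.481).

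These 4 genes and the pseudogene Ifi203-ps were set together after their values were seen. Their 10 pairwise correlations of deviations from genotype means ran from 0.75 to 0.97, with a median of 0.90, over 12 arrays (the heat map of co-variation). Without DKO replicate 3 they ran from 0.38 to 0.91 (median 0.75, 11 arrays), and without all 3 DKO arrays from 0.40 to 0.94 (median 0.79, 9 arrays), so the co-variation was present among the other genotypes too. The points share arrays, and the genes share sequence, so neither the number of independent points nor the number of independent probes is known.

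The sign of the relation between these genes and the neutrophil mean turned on 1 array. Over the 12 arrays it correlated with the deviations of Ifi203 at -0.79, Ifi207 at -0.81, Ifi211 at -0.71 and Mndal at -0.49. Without DKO replicate 3 the values were 0.18, 0.44, 0.71 and 0.71. With the mean of the interferon-stimulated genes, their deviations correlated at 0.60, 0.71, 0.80 and 0.65 over all arrays and at 0.23, 0.50, 0.69 and 0.45 without DKO replicate 3. Their levels went the other way, from 0.36, 0.62, 0.82 and 0.54 over all arrays to 0.65, 0.85, 0.93 and 0.68 without it (n = 11). Other lists followed the deviations over all arrays about as closely or more closely. In the same gene order, interferon signalling gave 0.81, 0.89, 0.91 and 0.77, and LSEC genes 0.73, 0.79, 0.78 and 0.55. Monocyte and dendritic cell genes gave -0.86, -0.87, -0.73 and -0.62. For these lists no values were taken without DKO replicate 3.

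**Figure D3:**
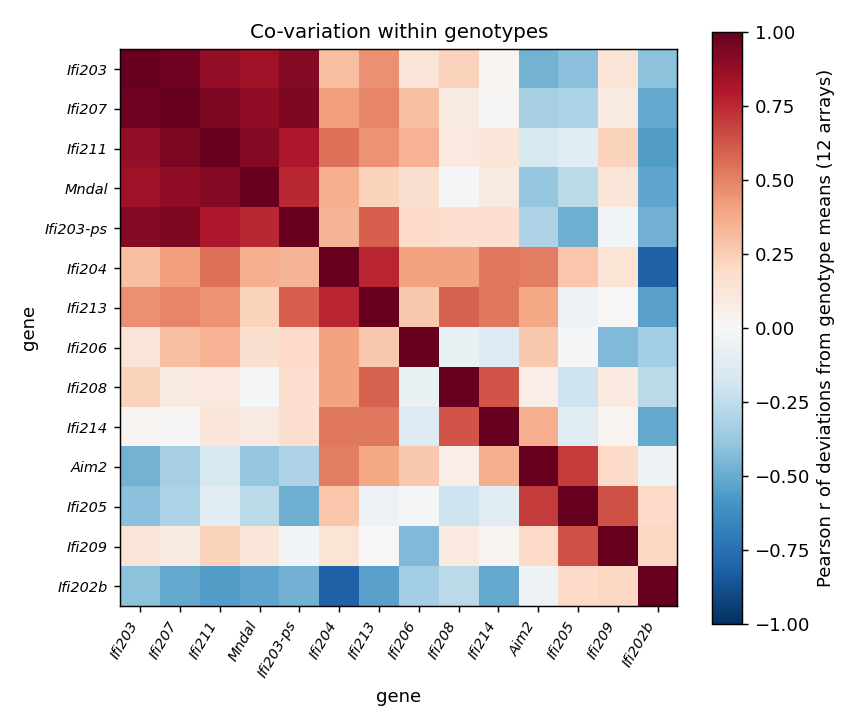
Pearson correlation of deviations from genotype means over 12 arrays, for the 10 genes and the other 4 measured family genes, with both axes listing genes and the colour giving r. Ifi203, Ifi207, Ifi211, Mndal and Ifi203-ps form the block at 0.75 to 0.97, Aim2 and Ifi205 correlate at 0.70, and Ifi202b is below 0 with Ifi204 (-0.81).

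Promoter likeness and co-variation did not always go together. The first window of Mndal matched the second of Ifi203 at 282 of 299 bases (94.3%), and Ifi207 matched Ifi211 at 260 of 297 (87.5%), and both pairs co-varied (0.85 and 0.94). Ifi205 matched Ifi211 at 188 of 201 aligned bases (93.5%) and Ifi207 at 181 of 209 (86.6%), while its deviations correlated with theirs at -0.11 and -0.32. The pair of Mndal and Ifi203 is shown because it has the closest match of the co-varying genes and the interferon pattern, in capitals, stands at nearly the same place, 36 and 35 bases before the start.
Mndal (chr1:173880188-173880437, minus strand): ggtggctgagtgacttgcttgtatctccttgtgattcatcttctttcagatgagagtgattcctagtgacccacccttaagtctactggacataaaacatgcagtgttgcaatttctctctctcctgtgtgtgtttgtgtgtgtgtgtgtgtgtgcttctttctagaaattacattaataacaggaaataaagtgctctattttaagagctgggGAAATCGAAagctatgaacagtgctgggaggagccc
Ifi203 (chr1:173942493-173942742, minus strand): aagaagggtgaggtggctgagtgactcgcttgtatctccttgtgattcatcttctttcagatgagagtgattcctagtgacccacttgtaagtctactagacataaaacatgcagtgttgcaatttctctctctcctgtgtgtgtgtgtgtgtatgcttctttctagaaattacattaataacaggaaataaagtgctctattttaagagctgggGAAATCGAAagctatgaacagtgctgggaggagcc

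Over the 9 genes with windows, GAAANNGAA was found on either strand in 6: Ifi203, Ifi205, Ifi207, Ifi208, Ifi211 and Mndal. Counted by window, the pattern was in 7 of their 11 windows, beside 2812 of all 32851 RefSeq windows of the same length (8.6%). Several of the family windows match one another closely, so their matches are not independent. No match was in the windows of Aim2, Ifi202b or Ifi209, which says only that these letters are not in those 300 bases. The other pattern searched on both strands, TTCNNNGAA of the gamma-activated type, was in 1 of the 9 (Ifi202b, beginning 148 bases before the start) and in 8.3% of all windows. The matches describe sequence, and no binding was measured.

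Ifi205 and Ifi209 varied widely within WT, and Kupffer cell genes were among the lists that varied with them. Ifi205 (chr1:174011998-174031755), a family gene known from macrophages, read 5.21, 7.01 and 6.10 in WT, 5.42, 6.12 and 6.31 in Stab1KO, 5.21, 5.61 and 4.82 in Stab2KO, and 5.44, 6.27 and 6.44 in DKO. WT alone spanned 1.81, and its array 1 lay at the level of Stab2KO. Set against WT, the differences were -0.16, -0.89 and -0.06 (each ± 0.43; limma adjusted p = 1, 0.689 and 0.972). They were -0.61, -1.34 and -0.51 without WT replicate 1 and 0.30, -0.44 and 0.40 without WT replicate 2, so the direction in Stab1KO and DKO turned on single WT arrays.

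Ifi209 (chr1:173630859-173647928), also named Pyhin1 after its pyrin and HIN domains, read 4.45, 6.18 and 5.61 in WT, 4.71, 4.68 and 5.12 in Stab1KO, 4.91, 4.6 and 4.84 in Stab2KO, and 5.15, 4.83 and 4.99 in DKO. WT held both the lowest and the highest of the 12 arrays. The differences from WT were -0.58, -0.63 and -0.42 (each ± 0.34; limma adjusted p = 1, 0.741 and 0.588), with no call when any 1 array was left out. They depended on which WT arrays were used: -1.06, -1.11 and -0.90 without WT replicate 1, and -0.19, -0.24 and -0.04 without WT replicate 2.

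The Kupffer cell mean read 7.82, 9.79 and 9.12 in WT, 8.48, 8.46 and 9.37 in Stab1KO, 7.46, 7.88 and 7.88 in Stab2KO, and 8.23, 9.27 and 8.48 in DKO. Clec4f and Timd4, which define Kupffer cells, read 8 to 10.72 and 5.88 to 8.19, with both lowest values in Stab2KO. All 14 list genes had a lower mean in Stab2KO than in WT, with a median of -1.22. Of the 14, 0 were called, and 10 passed at an unadjusted limma p under 0.05. Over the 12 arrays the Kupffer cell mean correlated with Ifi205 at r = 0.86 and with Ifi209 at r = 0.70, and without the 3 WT arrays at 0.76 and 0.27 (n = 9). As deviations from genotype means the values were 0.78 and 0.75, and without WT 0.51 and 0.07, so the relation of Ifi209 rested on the WT arrays. Other lists followed the same deviations about as closely: Ifi205 correlated at -0.78 with the large-vessel endothelial mean, and Ifi209 at -0.69 with that mean, 0.72 with B and plasma cell genes, 0.67 with stellate cell genes and 0.62 with hepatocyte genes.

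**Figure D4:**
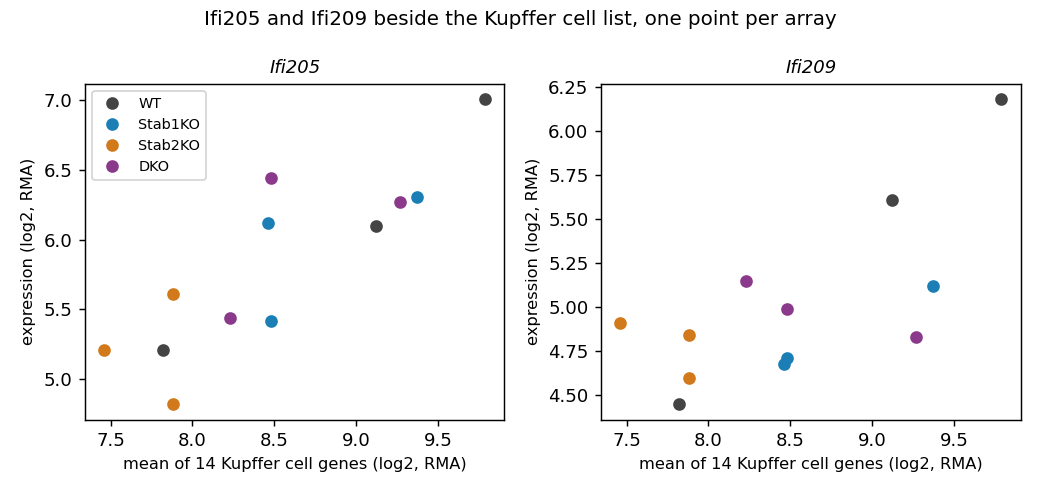
Expression (log2, RMA) of Ifi205 and Ifi209 against the mean of 14 Kupffer cell genes (log2), with 1 point per array coloured by genotype. Ifi205 follows the list mean across genotypes (r = 0.86), while the spread of Ifi209 lies mostly in the 3 WT arrays (4.45, 6.18 and 5.61).

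Set side by side, the differences from WT show how far the 10 genes could be resolved, as the plot of differences with their intervals shows. Standard errors ran from 0.07 for Ifi202b to 0.59 for Ifi208, and the residual SD of Ifi208, 0.83, was the widest of the family. Among the intervals of the 10 genes in the 3 knockouts, those of Ifi208 in Stab2KO and of Aim2 in DKO left out 0 before adjustment for the number of genes.

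**Figure D5:**
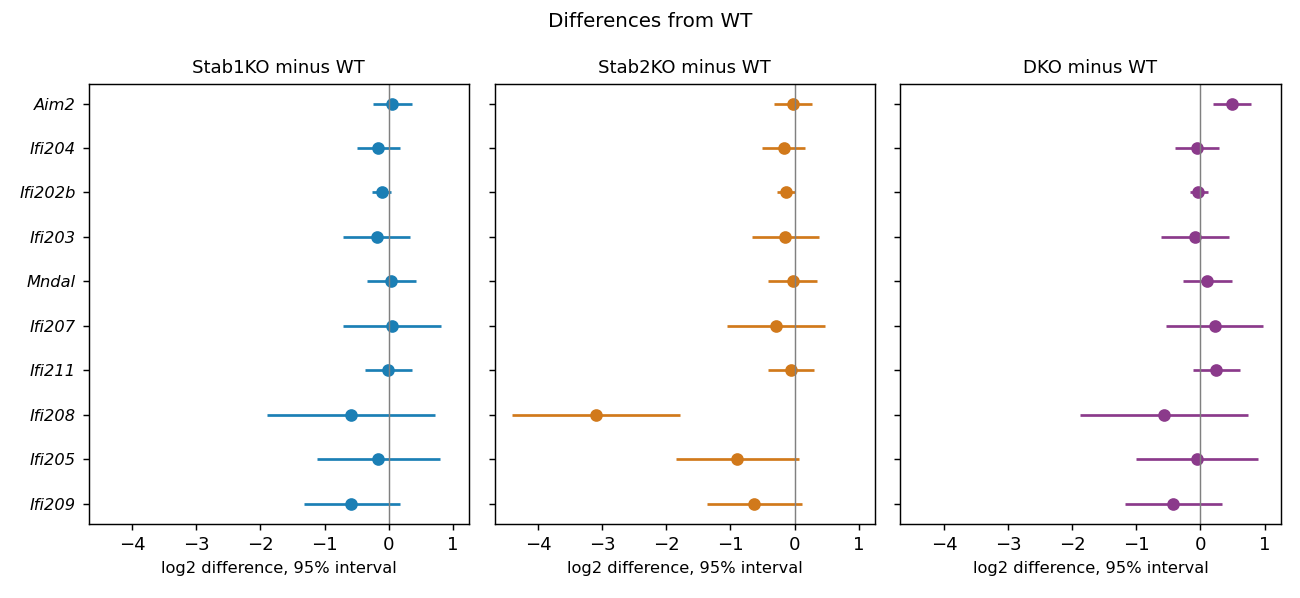
Log2 difference from WT with its 95% interval from limma for the 10 genes in Stab1KO, Stab2KO and DKO. The interval of Ifi208 in Stab2KO runs from -4.41 to -1.79 and that of Aim2 in DKO from 0.20 to 0.79, and neither difference was called after adjustment over all genes.

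In the chromosomal neighbourhood, within 1 Mb of the outermost genes, 43 other genes were tested. In any comparison 3 were called, all in DKO minus Stab2KO, where 3.42% of all genes were called. The count was not tested against that share. The 3 were Crp, the acute-phase protein gene (1.62), Ackr1, a chemokine-binding receptor of venular endothelium (0.72), and the family gene Ifi206 (0.88). Of the nearest tested genes, Ackr1 before the cluster differed from WT by 0.36, -0.12 and 0.60 in Stab1KO, Stab2KO and DKO, and the olfactory receptor gene Olfr433 after it by 0.24, 0.15 and 0.17. Neither was called against WT. The other family genes were Ifi214, at 3.28 to 3.97 in all arrays, and Ifi203-ps, at 9.41 to 10.49, and none of the 4 was called against WT.

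Few partners of the family in DNA sensing were called against WT. Of 22 measured genes of cytosolic DNA sensing, 0 were called in Stab1KO or Stab2KO against WT (1 and 1 at an unadjusted p under 0.05), and 1 fell in DKO: Hmgb1, a DNA-bending chromatin protein, with a difference of -0.48 ± 0.10 (limma adjusted p = 0.0405), a call that ended in 8 of the 12 fits leaving out 1 array (adjusted p up to 0.131). In DKO against WT, 7 of the 22 passed at an unadjusted limma p under 0.05, and 1.8% of all genes were called after adjustment. The list medians were 0, -0.08 and -0.10. In DKO minus Stab2KO, the comparison with the most calls over all genes (3.42%), 5 of the 22 were called. Zbp1, a sensor of Z-form nucleic acid (1.43), and Ikbke, a kinase of the interferon pathway (0.75), were higher, and Hmgb1 (-0.60), Irf3 (-0.40) and the ribonuclease subunit Rnaseh2b (-0.94) were lower. The count was 0 without Stab2KO replicate 1 or Stab2KO replicate 2 and with only the 6 arrays compared, and 3 without WT replicate 2. The enzyme gene Cgas averaged 5.20, 4.91, 5.08 and 5.13 in WT, Stab1KO, Stab2KO and DKO, and its adaptor Sting1 10.49, 10.45, 10.35 and 10.51.

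Of 20 inflammasome and pyroptosis genes, 0 were called against WT in any knockout (0, 2 and 3 at an unadjusted p under 0.05, medians -0.03, -0.10 and 0.08). The partners of AIM2, Pycard and Casp1, averaged 7.46 and 10.16 in WT and 7.39 and 10.02 in DKO. Casp4 (0.66) and Il18 (0.69) were higher in DKO than in Stab2KO (limma adjusted p = 0.0279 and 0.0273), and neither was called without Stab2KO replicate 1, without Stab2KO replicate 2, without DKO replicate 2 or with only the 6 arrays compared. Nlrp3, a gene of another inflammasome, reached 9.33 in DKO replicate 3 and lay between 4.94 and 6.96 elsewhere.

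Of the interferon-stimulated genes, the enzymes and antiviral proteins that interferon induces, a few rose in DKO, where Aim2 was also highest. Of 33 measured, 0 were called in Stab1KO or Stab2KO against WT (0 and 2 at an unadjusted p under 0.05), and 4 rose in DKO: Oasl1 by 1.33 ± 0.25, Oasl2 by 0.66, Isg20 by 0.61 and Cmpk2 by 0.52 (limma adjusted p = 0.028, 0.0186, 0.0282 and 0.0452). Oasl1 read 6.73, 7.45 and 6.99 in WT and 8.04, 8.90 and 8.23 in DKO, without overlap. In DKO against WT, 13 of the 33 passed at an unadjusted limma p under 0.05, and 1.8% of all genes were called after adjustment. The list medians were -0.01, -0.04 and 0.26, and 28 of the 33 were above 0 in DKO. The count depended on single arrays: it was 7 without DKO replicate 3, 1 without DKO replicate 2, 2 without WT replicate 2, 0 without WT replicate 1 or WT replicate 3, and 0 with only the 6 arrays compared. Over the 12 fits leaving out 1 array, Cmpk2 lost its call in 11, Isg20 in 4, Oasl1 in 3 and Oasl2 in 2. Other cell type markers were also higher in DKO. The mean of 5 cholangiocyte genes was 7.42 to 7.96 in DKO and 6.03 to 6.79 elsewhere (4 of 5 called against WT), and that of 12 large-vessel endothelial genes was 9.92 to 10.34 in DKO and 9.25 to 9.73 in WT (4 of 12 called, Selp by 1.57 and Fbln2 by 1.40 among them). Their part in the interferon-stimulated genes and in Aim2 was not tested. The interferon-stimulated list mean was 8.72 to 9.21 in DKO and 8.34 to 8.69 in the other 9 arrays. Of 18 genes of interferon signalling, limma called 0 against WT in any knockout (0, 1 and 5 at an unadjusted p under 0.05, medians -0.03, -0.03 and 0.06).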

How the data were processed

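The deposited values are log2 expression, 1 per gene identifier and array, and the authors used RMA (background correction, quantile normalization and probe summary), per the submitters' processing notes. Its version and the genome build were not given in the sources used here. Values of 24973 rows ran from 2.94 to 13.87, and no 2 arrays were identical. Rows were named through the platform annotation (24015 with 1 symbol), and 1 row per symbol was kept. No detection calls were used, so no gene is called absent.

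limma 3.58.1 in R 4.3.3 was fitted to 4 group means over all 12 arrays, with Benjamini-Hochberg adjustment over 24011 genes within each of 7 contrasts and calls at an adjusted p under 0.05. The fit was tested on simulated data. P-values measure the spread between pools, and the number of arrays, 3 per genotype, limits the precision. Promoters came from RefSeq tables of GRCm38.p6 and were aligned with Biopython 1.88 (match 2, mismatch -3).

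The genes and lists were chosen with earlier results of these data known. Named were all 10 genes, the targeted genes, Nnt, other family genes and neighbours within 1 Mb that were called or nearest, up to 4 called genes per pathway list, up to 2 defining genes per cell type list, and the 3 profiles most like a called gene or the gene of widest range. Cgas, Sting1, Pycard, Casp1, Nlrp3 and calls in DKO minus Stab2KO were added after values were seen. Alternatives were the replicate number as a block, a filter at the 40th percentile of mean signal, trend and robust variance, and array weights. Others were median centring followed by quantile normalization, all rows, only the arrays compared, and leaving out each array.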

Additional observations from a re-analysis of the deposited data

Results flagged for a closer look

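For 2 of the 10 genes, arrays separated in opposite ways when Stab1 was lost with and without Stab2. All 3 Stab1KO arrays lay below all WT arrays, while all 3 DKO arrays lay above all Stab2KO arrays. Of all 24011 genes, 225 (0.937%) separated in opposite ways like this, and the 2 of 10 was not tested against that share. The nearest Stab1KO and WT arrays read 7.27 and 7.29 for Ifi208 and 3.31 and 3.31 for Ifi202b. Their Stab1KO differences from WT, -0.58 and -0.11, were not called. For Ifi208, 2 Stab2KO arrays (3.39 and 3.33) lie in the low range of the scale. For Ifi208 the departure from additivity was 3.11 on the log2 scale (unadjusted p = 0.0036, limma adjusted p = 0.161). For Ifi202b, a gene near the lower end of the scale in every array with a whole range of 0.19, it was 0.22 (unadjusted p = 0.0423, limma adjusted p = 0.377). The test of the difference itself passed for neither after adjustment over all genes.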

How the results depend on the processing

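Over the 10 genes and 7 contrasts, 1290 of 1313 values under the alternatives kept their side of the threshold. A call was lost in 13 and gained in 10, and 0 changed sign while called. All 13 losses were of Ifi208 in DKO minus Stab2KO, the only value called as reported, under its 19 alternatives. The other values were uncalled to begin with, most of them far from the threshold, so the 1290 says little about that call. Of the 1290, 1229 also kept their sign, 55 changed it without a call on either side, and 6 rounded to 0. The filter on low signal kept 14406 genes and left out Ifi202b.

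The members called in DKO minus Stab2KO, 1 as reported, numbered 0 with trend and robust variance (Ifi208, adjusted p = 0.0706), 0 with only the 6 arrays compared (adjusted p = 0.204), 3 with array weights (Ifi207, Ifi208 and Ifi211), and 0 to 2 when 1 array was left out. In Stab2KO minus WT, 0 as reported, 1 was called with the replicate block (Ifi208, -3.10, adjusted p = 0.0387), 1 with array weights (-2.98, adjusted p = 0.0404), and 0 to 1 when 1 array was left out. In any knockout against WT by the F-test, 0 as reported, 1 was called with the replicate block, 1 with the filter on low signal, 1 with array weights, and 0 to 1 when 1 array was left out. In Stab1KO minus Stab2KO and in the departure from additivity the count was 0 to 1 when 1 array was left out. The cause of these changes was not tested. Whether the replicate numbers pair the arrays cannot be told from these values. Correlations of same-numbered arrays' deviations ran from -0.06 to 0.29, with 4 of 18 over 0.1. Among arrays of other genotypes, 7 of 12 arrays correlated best with 1 of their own number.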
